A study of Homo sapiens with 6 samples.

Results

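ATP-binding cassette (ABC) proteins bind and hydrolyse ATP on a conserved pair of cassette domains, and most members couple this to moving lipids, sterols, peptides, drugs or conjugated metabolites across a membrane. In human cells they are grouped by sequence into subfamilies A to G, of which E and F lack membrane-spanning segments and act on ribosomes. In intestinal epithelium and in colorectal tumours the family is best known for the export of sterols, bile acid conjugates and anticancer drugs.

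The genes described here were all those of the deposited count table whose symbol consists of ABC, a letter from A to G and a number. Of 20476 genes in the table, 45 met this rule. They comprised 12 genes of subfamily A, 9 of B, 11 of C, 4 of D, 1 of E, 3 of F and 5 of G. The groups were compared in the 27 that were chosen by a measured value, 10 or more counts in 3 or more of the 6 libraries, and all 27 reached it in libraries of both groups. ABCA7 and ABCA2 were singled out because of the size of their difference in an earlier look at these libraries, so their differences are given as a description with no test.

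The libraries came from SW620, a human line established from a lymph node metastasis of a colorectal carcinoma. The 3 shECM1 libraries were made from cells with a stable hairpin against ECM1, a gene for a secreted matrix glycoprotein, and the 3 shNC libraries from cells with a negative control hairpin. The stated interest of the study was CCL20 expression after ECM1 knockdown. The labels do not say whether each hairpin line is a clone or a pool, nor whether replicates were grown separately, so the p-values reflect a spread among libraries that could be purely technical. The columns of the table were assigned to the groups by the letters in their names. This is an inference from the names, and with the letters exchanged every direction below would turn round.

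Library totals were 9881720 to 16813951 counts in shECM1 and 11792872 to 14781799 counts in shNC. Levels are normalised counts (CPM, scaled to a common library total) after adjustment by the trimmed mean of M values (TMM), and log2 fold changes are shECM1 minus shNC, given with their standard error (SE). ECM1, the targeted gene, stood at 14.8, 13.6 and 8.41 CPM in shECM1 replicates 1 to 3, against 38.8, 19.0 and 52.3 CPM in shNC replicates 1 to 3. One control library, shNC replicate 2, stood apart from its group. On the first principal component, which held 58.1% of the variance, the shECM1 libraries lay at 16.6 to 23.3, shNC replicate 2 at 8.64, and shNC replicates 1 and 3 at -25.2 and -41.3. It was the control library nearest to the shECM1 mean for 18 of the 27 ABC genes (66.7%) and for 63.6% of all genes tested, so the ABC genes whose call changed without it are given both ways. Leaving out the control nearest to shECM1 tends by itself to widen differences and lower p-values. Calls made without it are therefore a description and no added support. Of the intestinal epithelial markers, 9 of 10 were tested, with a summed level of 9667 to 11146 CPM in shECM1 and 10007 to 14368 CPM in shNC. This sum rested mainly on KRT8 (mean 6183 CPM in shECM1 and 7441 CPM in shNC) and KRT18 (3267 CPM in shECM1 and 4004 CPM in shNC). EPCAM stood at 519 CPM in shECM1 and 472 CPM in shNC, and VIL1 at 343 and 383 CPM. KRT20 (1.13 and 1.40 CPM) and LGALS4 (0.862 and 0.790 CPM) were low, and CDX1 had 0 to 1 counts per library. CDX2 (18.1 and 14.6 CPM), CDH17 (5.66 and 7.56 CPM) and CEACAM5 (16.4 and 29.5 CPM) lay between. CDH17 and CEACAM5 were lower in every shECM1 library than in every shNC library, and DESeq2 called CEACAM5 (adjusted p = 0.00910). Summed markers were low for fibroblasts (3 of 7 tested, 16.7 to 20.9 CPM in shECM1 and 23.5 to 35.5 CPM in shNC), leukocytes (1 of 5 tested, 5.06 to 6.66 CPM in shECM1 and 5.24 to 15.9 CPM in shNC) and endothelium (2 of 4 tested, 8.04 to 9.22 CPM in shECM1 and 9.73 to 12.1 CPM in shNC), with PDGFRA, COL3A1, PTPRC, CD3E and KDR at 0 in every library. The fibroblast sum rested on LUM (9.23 CPM in shECM1 and 10.8 CPM in shNC) and COL1A1, which was lower in every shECM1 library (8.38 ± 1.27 CPM in shECM1 and 17.6 ± 4.26 CPM in shNC, SD, n = 3 each, DESeq2 adjusted p = 0.000822), and the leukocyte sum on LYZ (5.57 ± 0.957 CPM in shECM1 and 10.9 ± 5.37 CPM in shNC). Their part in the results below was not tested. In such libraries fewer cells of a type and less RNA per cell cannot be told apart.

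Among the ABC genes of highest level per exon length in both groups were the ribosome-associated ABCF1, ABCE1 and ABCF3, the export pumps ABCC1, ABCC2 and ABCC3, and ABCD3 and ABCD4 of peroxisomes and lysosomes. The summed level of the 27 genes was 1269, 1258 and 1265 CPM in shECM1 replicates 1 to 3 and 1306, 1318 and 1311 CPM in shNC replicates 1 to 3. This sum includes ABCA7 and ABCA2, which were picked for their difference. That it was slightly lower in every shECM1 library therefore says nothing about the other genes. Single genes differed in opposite directions within the sum. The lipid transporters ABCA7 and ABCA2 and the organic anion pump ABCC3 lay lower in every shECM1 library than in every shNC library, by 1.72-fold, 1.77-fold and 1.48-fold, while the cyclic nucleotide exporter ABCC4 and the ribosome recycling factor ABCE1 lay higher, by 1.63-fold and 1.32-fold.

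None of the 27 genes, and 0 of the 12576 genes tested (0%), passed edgeR's quasi-likelihood test at an adjusted p under 0.05, and limma-voom also called 0 genes. The counts that follow leave out ABCA7 and ABCA2, whose difference was known when they were picked, and cover the 25 other genes, of which no test was made as a set. At an unadjusted p under 0.05 with edgeR, 3 (12%) were lower in shECM1 (ABCC3, ABCB6 and ABCB8), beside 14.2% of all genes tested. In the other direction 2 (8%) were higher (ABCC4 and ABCE1), beside 8.31% of all genes. DESeq2 called 1 (4%) lower at an adjusted p under 0.05 (ABCC3), beside 4.74% of the 12332 genes to which it gave an adjusted p. It called 0 higher, beside 0.868% of those genes. ABCC11, which is among the 25, was given no adjusted p by DESeq2. Every shECM1 library was below every shNC library for 5 (20%), ABCC3, ABCB6, ABCB8, ABCC6 and ABCD4, beside 13.2% of all genes. All shECM1 libraries were above all shNC libraries for 3 (12%), ABCC4, ABCE1 and ABCB10, beside 11.2% of all genes. With shNC replicate 2 left out, edgeR called 3 (12%) lower (ABCC3, ABCB6 and ABCB8), beside 14.1% of all genes, and 3 (12%) higher (ABCC4, ABCE1 and ABCC2), beside 9.73%, at an adjusted p under 0.05. The median log2 fold change was 0.036 over all 27 ABC genes, ABCA7 and ABCA2 included, with 12 negative and 15 positive. Over all genes tested it was 0.011, with 6110 negative and 6466 positive. For 20 of the same 27 the log2 fold change was under 0.4 in size. The share of all genes under that size is not given, so this count says nothing about the family.

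**Figure D1:**
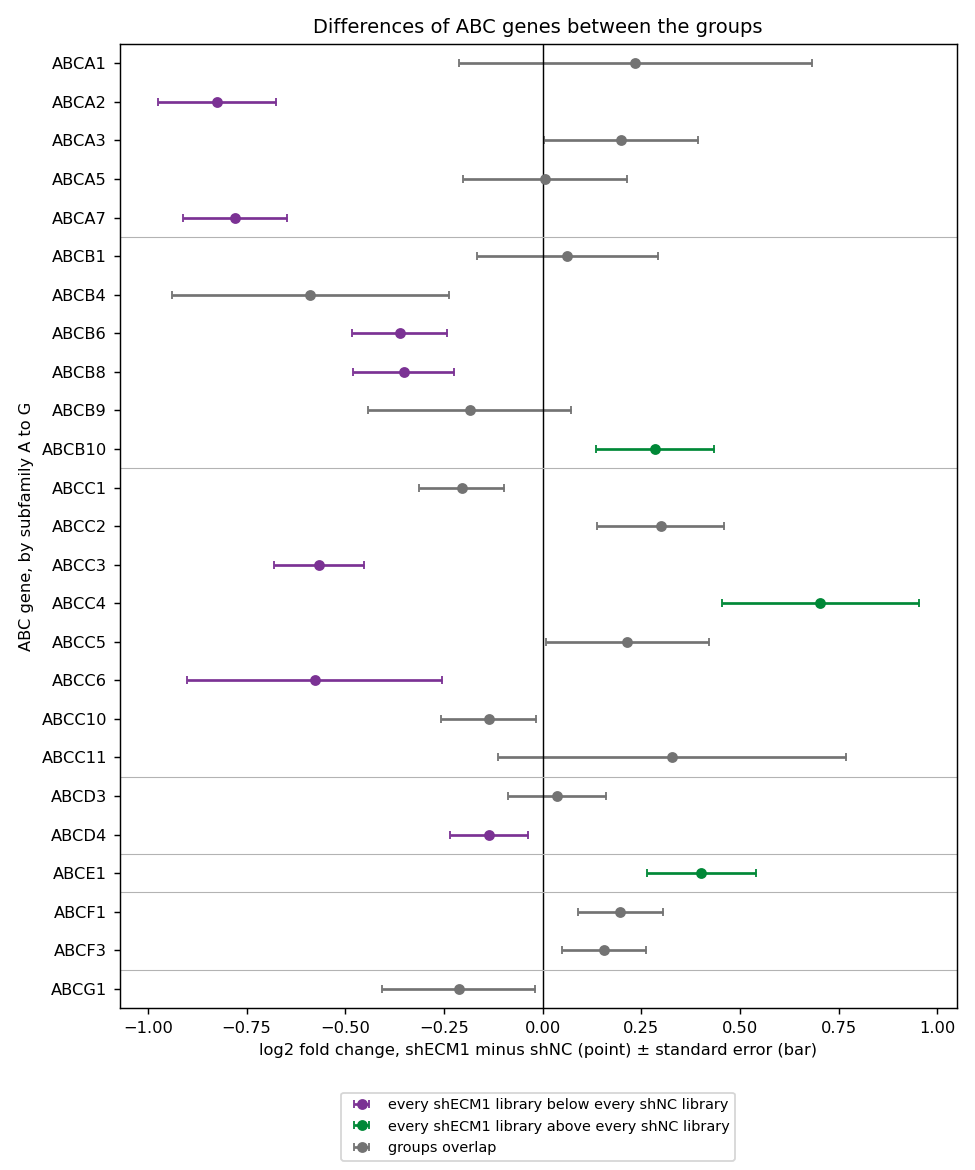
The log2 fold change of shECM1 minus shNC (points) with its SE (bars) for 25 of the 27 ABC genes, ordered by subfamily, coloured by whether every shECM1 library lay below or above every shNC library. Among the genes whose groups do not overlap, ABCA2, ABCA7, the weakly expressed ABCC6 and ABCC3 sit farthest left, and ABCC4 and ABCE1 farthest right.

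Subfamily A holds large single-chain transporters of phospholipids and sterols, and 5 of its 12 genes reached the count minimum. ABCA7, which moves phospholipids to the outer leaflet and carries risk alleles for Alzheimer's disease, is ENSG00000064687 on chromosome 19, 1040101 to 1065572, plus strand (GRCh38). It stood at 34.4, 31.9 and 34.3 CPM in shECM1 replicates 1 to 3, against 58.8, 48.3 and 65.3 CPM in shNC replicates 1 to 3. The shECM1 libraries were tightly grouped and all lay below the lowest control, shNC replicate 2. The means were 33.5 ± 1.42 CPM in shECM1 and 57.4 ± 8.59 CPM in shNC (SD, n = 3 each), a log2 fold change of -0.78 ± 0.13 (SE), and of -0.88 without shNC replicate 2.

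ABCA2, a transporter of late endosomes and lysosomes linked to sphingolipid and sterol handling, is ENSG00000107331 on chromosome 9, 137007227 to 137028922, minus strand. Its level was 46.7, 41.6 and 47.9 CPM in shECM1 replicates 1 to 3, against 78.5, 64.6 and 97.9 CPM in shNC replicates 1 to 3. As for ABCA7, the groups did not overlap, the control group had the wider spread and shNC replicate 2 was its lowest library. The means were 45.4 ± 3.29 CPM in shECM1 and 80.3 ± 16.8 CPM in shNC (SD, n = 3 each), a log2 fold change of -0.82 ± 0.15, and of -0.95 without shNC replicate 2. The counts behind these levels were 346 to 912 per library for ABCA7 and 470 to 1368 per library for ABCA2.

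The windows at the annotated starts of these genes are shown with those of ABCC4 and ABCE1, the genes that lay higher, since these differed farthest in each direction among genes with non-overlapping groups and a window in the table used. Each window runs from 250 bases before to 50 bases after a RefSeq transcript start (GRCh38.p14), read 5′ to 3′ on the gene's strand, and capitals mark GGGCGG, the core of the GC box, on either strand, with overlapping matches merged.
ABCA7, chr19:1039857-1040156, plus strand: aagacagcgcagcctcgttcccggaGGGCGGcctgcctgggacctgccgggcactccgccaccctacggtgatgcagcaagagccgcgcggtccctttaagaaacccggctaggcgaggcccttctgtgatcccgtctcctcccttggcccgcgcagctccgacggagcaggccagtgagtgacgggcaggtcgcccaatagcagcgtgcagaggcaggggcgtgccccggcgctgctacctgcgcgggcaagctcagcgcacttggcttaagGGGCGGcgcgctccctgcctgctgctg
ABCA2, chr9:137028188-137028487, minus strand: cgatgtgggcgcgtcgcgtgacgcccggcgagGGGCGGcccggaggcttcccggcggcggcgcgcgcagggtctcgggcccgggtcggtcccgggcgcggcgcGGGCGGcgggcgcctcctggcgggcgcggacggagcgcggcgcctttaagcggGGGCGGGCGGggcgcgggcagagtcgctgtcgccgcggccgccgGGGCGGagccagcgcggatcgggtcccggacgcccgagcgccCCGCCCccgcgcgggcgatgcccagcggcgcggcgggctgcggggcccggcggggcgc
ABCA2, chr9:137028873-137029172, minus strand: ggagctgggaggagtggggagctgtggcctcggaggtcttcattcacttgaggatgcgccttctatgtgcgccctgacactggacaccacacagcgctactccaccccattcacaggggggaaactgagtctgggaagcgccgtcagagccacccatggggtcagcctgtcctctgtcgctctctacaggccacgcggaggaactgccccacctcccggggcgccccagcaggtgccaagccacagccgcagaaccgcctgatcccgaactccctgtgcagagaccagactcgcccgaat
ABCC4, chr13:95301402-95301701, minus strand: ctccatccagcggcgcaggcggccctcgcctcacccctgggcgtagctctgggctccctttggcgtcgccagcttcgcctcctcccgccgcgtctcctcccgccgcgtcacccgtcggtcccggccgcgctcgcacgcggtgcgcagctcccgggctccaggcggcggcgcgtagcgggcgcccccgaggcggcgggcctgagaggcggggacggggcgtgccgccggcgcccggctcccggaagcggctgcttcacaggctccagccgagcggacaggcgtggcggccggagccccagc
ABCE1, chr4:145098061-145098360, plus strand: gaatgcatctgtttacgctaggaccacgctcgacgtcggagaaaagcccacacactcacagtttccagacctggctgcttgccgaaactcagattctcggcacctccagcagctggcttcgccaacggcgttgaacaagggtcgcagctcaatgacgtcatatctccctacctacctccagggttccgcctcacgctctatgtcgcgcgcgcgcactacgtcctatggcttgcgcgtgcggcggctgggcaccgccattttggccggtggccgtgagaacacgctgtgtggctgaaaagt
The ABCA7 window held 2 matches in 70.0% GC. The downstream ABCA2 window held 6 in 86.7% GC, and the upstream one 0 in 64.3% GC. The ABCC4 and ABCE1 windows held 0 matches in 79.7% and 59.7% GC. The motif occurred in 18 of the 29 windows of 21 tested ABC genes (62.1%) and in 44.95% of all 35116 windows, whose median GC content was 58.7%. A match describes these letters and no binding was measured.

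The remaining A genes showed no such separation. ABCA3, a lamellar body lipid transporter of lung, stood at 8.82 to 9.63 CPM in shECM1 and 6.08 to 9.27 CPM in shNC, with a log2 fold change of 0.20 ± 0.20 (adjusted p = 0.561, edgeR). ABCA5, a lysosomal member, stood at 44.2, 30.9 and 21.7 CPM in shECM1 replicates 1 to 3, against 33.1, 31.6 and 31.1 CPM in shNC, so the knockdown libraries lay on both sides of a narrow control range. ABCA1, the sterol efflux pump that loads apolipoprotein A-I, was close to the limit of detection at 9 to 18 counts per library (0.536 to 1.79 CPM in shECM1, 0.859 to 1.10 CPM in shNC). ABCA5 lies at the end of a run of related genes on chromosome 17 in the order ABCA8, ABCA9, ABCA6, ABCA10 and ABCA5, with no coding gene between them. ABCA5, which shares 318 bases of exon with ABCA10, had 296 to 519 counts per library, and the other members of the run 0 to 5.

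**Figure D2:**
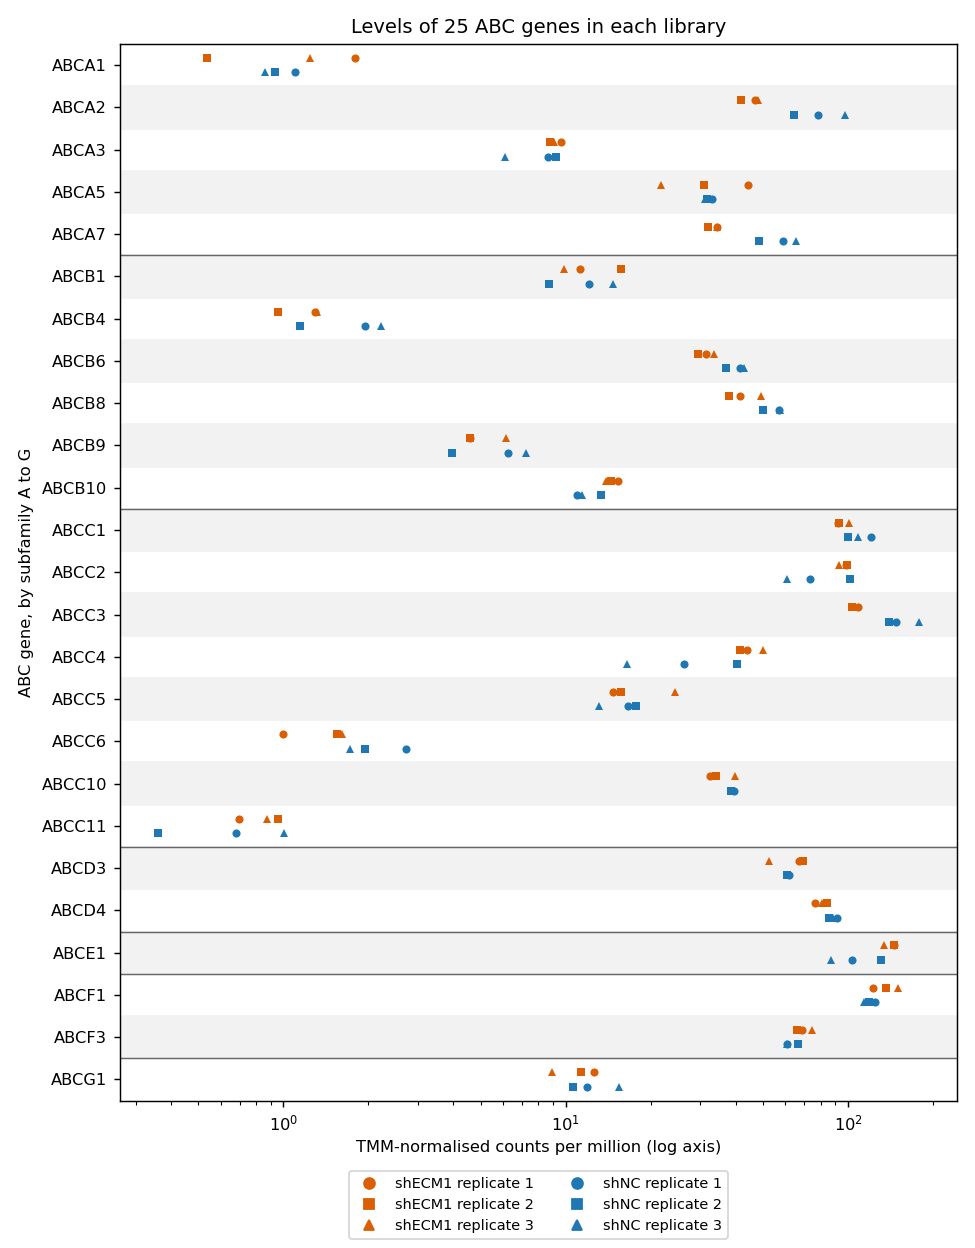
TMM-normalised CPM on a log axis for 25 of the 27 ABC genes in every library, with shECM1 above shNC within each band and a marker shape for each replicate number. For ABCA2, ABCA7 and ABCC3 the shECM1 symbols lie left of all shNC symbols, and the shNC replicate 2 square is often the control nearest to them.

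Subfamily B contains the multidrug efflux pump ABCB1, the phosphatidylcholine floppase ABCB4 of bile canaliculi, and a group of mitochondrial and lysosomal half-transporters, with 7 of its 9 genes above the minimum. ABCB6, a porphyrin-associated half-transporter, stood at 31.4, 29.4 and 33.6 CPM in shECM1 replicates 1 to 3 and at 41.5, 37.0 and 42.8 CPM in shNC replicates 1 to 3. ABCB8, the nucleotide-binding part of a potassium channel of the inner mitochondrial membrane, stood at 41.4, 38.0 and 49.2 CPM in shECM1 and at 56.9, 49.8 and 57.6 CPM in shNC. In both genes the knockdown libraries all lay below the controls, for ABCB8 by a narrow margin. Their log2 fold changes were -0.36 ± 0.12 (adjusted p = 0.129, edgeR) for ABCB6 and -0.35 ± 0.13 (adjusted p = 0.151) for ABCB8. Without shNC replicate 2 they passed at -0.41 (adjusted p = 0.0278) and -0.40 (adjusted p = 0.0399). ABCB6 shares 2864 bases of exon with an overlapping gene model on the same strand, ENSG00000284820, that was listed with 0 counts in every library. How reads in shared exons were counted is not given, so the count of ABCB6 is uncertain.

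ABCB10, a half-transporter of the inner mitochondrial membrane associated with heme synthesis, stood at 15.3, 14.4 and 13.8 CPM in shECM1, against 11.0, 13.3 and 11.4 CPM in shNC. Every shECM1 library of ABCB10 lay above every shNC library, by a small margin over shNC replicate 2, with a log2 fold change of 0.28 ± 0.15 (adjusted p = 0.280, edgeR). Of these mitochondrial half-transporters, ABCB8 had a negative and ABCB10 a positive fold change.

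ABCB1, the drug efflux pump P-glycoprotein, stood at 11.2, 15.7 and 9.88 CPM in shECM1 and 12.1, 8.69 and 14.7 CPM in shNC. The groups overlapped, with a log2 fold change of 0.063 ± 0.23 (adjusted p = 0.889). Its neighbour ABCB4, which lies 23198 bases away on chromosome 7 with no coding gene between, had 13 to 31 counts per library and a log2 fold change of -0.59 ± 0.35 (adjusted p = 0.336). ABCB9, a lysosomal peptide transporter, had 46 to 101 counts per library and a log2 fold change of -0.18 ± 0.26 (adjusted p = 0.690). Its exons overlap OGFOD2 and ARL6IP4 on the opposite strand by 1656 and 1590 bases, and since it is not given whether counting used strand, its count is uncertain.

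Subfamily C holds the multidrug resistance-associated proteins, which export glutathione, glucuronide and sulphate conjugates, bile acids, cyclic nucleotides and drugs, and 8 of its 11 genes reached the minimum. Its summed level was 391.0, 389.2 and 414.4 CPM in shECM1 replicates 1 to 3 and 427.7, 440.5 and 419.8 CPM in shNC replicates 1 to 3. Within that sum ABCC3 was lower in the knockdown libraries and ABCC4 higher. ABCC3, a basolateral exporter of bile acid conjugates and glucuronides (ENSG00000108846, chromosome 17, 50634777 to 50692252, plus strand), stood at 108.0, 103.1 and 104.2 CPM in shECM1 replicates 1 to 3, against 147.9, 140.1 and 178.9 CPM in shNC replicates 1 to 3. Its shECM1 libraries lay close together and all below the lowest control, shNC replicate 2. The means were 105.1 ± 2.59 CPM in shECM1 and 155.6 ± 20.5 CPM in shNC (SD, n = 3 each), a log2 fold change of -0.57 ± 0.11. Its adjusted p was 0.0973 with edgeR, 0.00208 with DESeq2 and 0.0192 with edgeR and no filter on low counts. Without shNC replicate 2 it was -0.62 (adjusted p = 0.00190, edgeR).

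ABCC4, which exports cyclic nucleotides, prostaglandins and urate (ENSG00000125257, chromosome 13, 95019829 to 95301475, minus strand), had the largest positive difference of the family. It stood at 43.9, 41.6 and 50.1 CPM in shECM1 replicates 1 to 3, against 26.1, 40.5 and 16.5 CPM in shNC replicates 1 to 3. The groups did not overlap, but shNC replicate 2 came close to the lowest knockdown library, and the control libraries were widely spread. The means were 45.2 ± 4.42 CPM in shECM1 and 27.7 ± 12.1 CPM in shNC (SD, n = 3 each), a log2 fold change of 0.70 ± 0.25 (adjusted p = 0.143 with edgeR and 0.0548 with DESeq2). It was 1.10 when shNC replicate 2 was left out (adjusted p = 0.00153, edgeR) and 0.44 when shNC replicate 3 was.

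ABCC2, the apical exporter of bilirubin glucuronides (ENSG00000023839, chromosome 10, 99782640 to 99852594, plus strand), stood at 98.0, 99.3 and 92.9 CPM in shECM1 replicates 1 to 3 and at 73.5, 101.4 and 60.8 CPM in shNC replicates 1 to 3. Here the groups overlapped, since shNC replicate 2 was the highest library of all. Its log2 fold change was 0.30 ± 0.16 (adjusted p = 0.290, edgeR), 0.54 without shNC replicate 2 (adjusted p = 0.00659) and 0.15 without shNC replicate 3. ABCC1, the broad glutathione-conjugate and drug exporter, stood at 92.2, 93.0 and 100.4 CPM in shECM1 and at 120.8, 99.9 and 108.7 CPM in shNC, a log2 fold change of -0.21 ± 0.11 (adjusted p = 0.277). A knockdown library lay just above the lowest control, so its groups overlapped.

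Ratios between genes of one library do not depend on how libraries are scaled. Those given here were not adjusted for transcript GC content, which was 43.2% for ABCC4, 44.9% for ABCC2 and 55.8% for ABCC3. The ratio of ABCC4 counts to ABCC3 counts was 0.406, 0.403 and 0.481 in shECM1 replicates 1 to 3, against 0.177, 0.289 and 0.0924 in shNC replicates 1 to 3. The ratio of ABCC2 to ABCC3, the apical to the basolateral conjugate exporter, was 0.907, 0.963 and 0.892 in shECM1, against 0.497, 0.724 and 0.340 in shNC. Both ratios were higher in every shECM1 library than in every shNC library. As these pairs were taken because of their differences, the ratios are a description and carry no test.

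**Figure D3:**
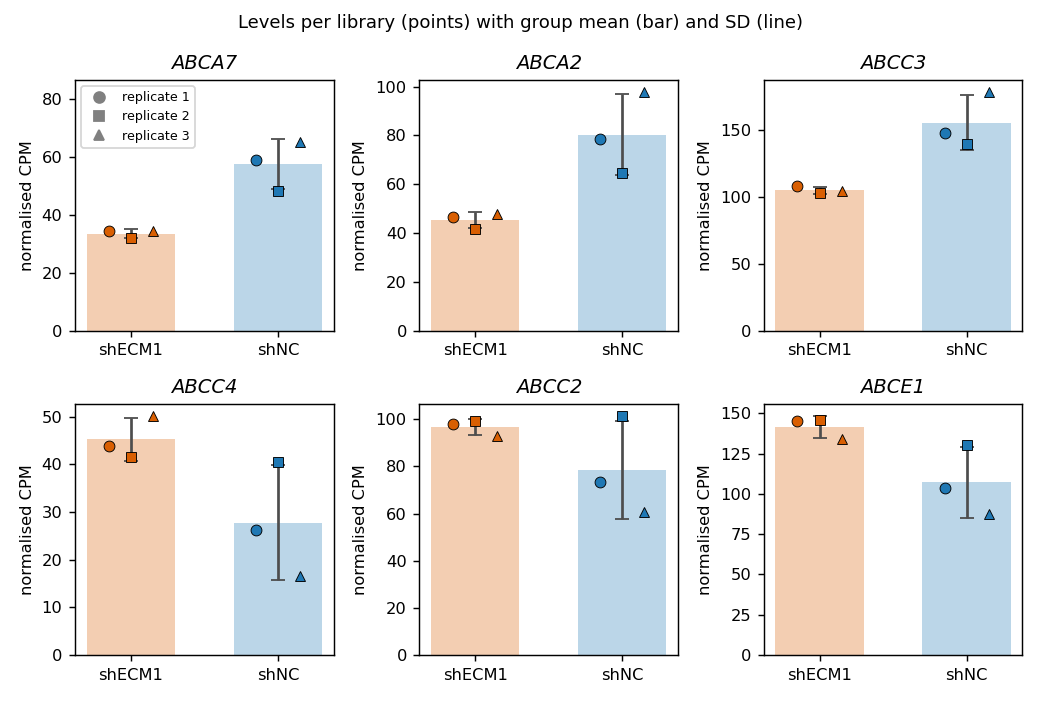
Normalised CPM of ABCA7, ABCA2, ABCC3, ABCC4, ABCC2 and ABCE1 in each library (points), with the group mean (bar, from 0) and SD (line), shECM1 left of shNC. The square of shNC replicate 2 is the control nearest to the shECM1 mean in each gene, and for ABCC2 it lies above all shECM1 libraries at 101.4 CPM.

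The remaining C genes, like those above, did not pass edgeR's test with all 6 libraries. ABCC10, a relative of ABCC1, stood at 32.5 to 39.9 CPM in shECM1 and 38.6 to 39.4 CPM in shNC (log2 fold change -0.14 ± 0.12, adjusted p = 0.511). ABCC5, an exporter of cyclic nucleotides and acylated amino acids, stood at 14.7 to 24.4 CPM in shECM1 and 13.1 to 17.7 CPM in shNC (log2 fold change 0.21 ± 0.21, adjusted p = 0.551). ABCC6, the gene mutated in pseudoxanthoma elasticum, stood at 0.993, 1.55 and 1.61 CPM in shECM1 and 2.71, 1.94 and 1.72 CPM in shNC. Its groups did not overlap but rested on 10 to 32 counts per library, with a log2 fold change of -0.58 ± 0.32 (adjusted p = 0.307), and near-identical pseudogene copies make its count uncertain. It lies 5854 bases from ABCC1, which had 929 to 1561 counts. ABCC11, known for the earwax-type variant, was the gene nearest the count minimum, with 5 to 16 counts per library and a log2 fold change of 0.33 ± 0.44 (adjusted p = 0.681).

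Subfamily D imports fatty acyl-CoA esters into peroxisomes, apart from ABCD4, which acts in lysosomal export of vitamin B12, and 3 of its 4 genes were measured. ABCD3, the main peroxisomal membrane member, stood at 67.1, 69.1 and 52.4 CPM in shECM1 and 61.8, 60.8 and 61.3 CPM in shNC (log2 fold change 0.036 ± 0.12, adjusted p = 0.883). ABCD4 stood at 76.3, 83.9 and 81.0 CPM in shECM1, against 91.2, 85.4 and 88.5 CPM in shNC. Its groups did not overlap, but the difference was small, at -0.14 ± 0.10 on the log2 scale (adjusted p = 0.428).

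Subfamilies E and F are soluble and act in translation. ABCE1, which splits ribosomes after termination (ENSG00000164163, chromosome 4, 145097932 to 145129179, plus strand), stood at 145.0, 146.0 and 133.8 CPM in shECM1 replicates 1 to 3, against 103.5, 130.6 and 87.3 CPM in shNC replicates 1 to 3. The groups did not overlap, and shNC replicate 2 lay close under the lowest knockdown library. The means were 141.6 ± 6.76 CPM in shECM1 and 107.1 ± 21.9 CPM in shNC (SD, n = 3 each), a log2 fold change of 0.40 ± 0.14 (adjusted p = 0.138 with edgeR and 0.0868 with DESeq2). Without shNC replicate 2 it was 0.58 (adjusted p = 0.00362, edgeR). Its exons overlap ANAPC10, OTUD4 and ENSG00000285713 on the opposite strand by 469, 276 and 243 bases, so a share of its count could belong to them.

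ABCF1, a partner of initiation factor eIF2, stood at 122.3, 136.7 and 149.9 CPM in shECM1 and at 124.4, 118.8 and 113.7 CPM in shNC (log2 fold change 0.20 ± 0.11, adjusted p = 0.294). ABCF3 stood at 68.4, 66.2 and 74.7 CPM in shECM1 and at 60.9, 66.2 and 60.6 CPM in shNC (log2 fold change 0.16 ± 0.11, adjusted p = 0.395). Both were positive without passing the test, and in each a knockdown library lay within the control range. Subfamily G, which holds sterol half-transporters and the drug pump ABCG2, had 1 of its 5 genes above the minimum. ABCG1, which moves sterols to lipoprotein particles, stood at 12.6, 11.3 and 8.93 CPM in shECM1 and 11.8, 10.6 and 15.5 CPM in shNC (log2 fold change -0.21 ± 0.19, adjusted p = 0.527).

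The 18 genes below the minimum were ABCA4, ABCA6, ABCA8, ABCA9, ABCA10, ABCA12, ABCA13, ABCB5, ABCB11, ABCC8, ABCC9, ABCC12, ABCD2, ABCF2, ABCG2, ABCG4, ABCG5 and ABCG8. Of these, ABCA6, ABCA8, ABCB11 and ABCD2 had 0 counts in every library. A count of 0 allows up to 3 counts, which is 0.179 to 0.298 CPM across libraries and covers counting error only. The breast cancer resistance protein ABCG2 had 0 to 2 counts per library, and the heterodimeric sterol pumps ABCG5 and ABCG8 had 0 to 2 and 0 to 1, levels at which no difference was detectable. The genes just outside the minimum were ABCC8, the sulphonylurea receptor, with 1 to 11 counts, and ABCF2 with 0 to 10 counts, each reaching 10 in 1 library. ABCF2 shares 1914 bases of exon with the readthrough gene ABCF2-H2BK1, and its count is uncertain. Just inside were ABCC11, which reached 10 counts in 3 libraries, and ABCA1, which reached it in 5.

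Levels of different genes are compared here as CPM divided by exon length in kilobases (RPKM), which assumes reads spread along transcripts. ABCF1 was the highest in both groups, at 30.1 ± 3.05 RPKM in shECM1 and 26.3 ± 1.19 RPKM in shNC (SD, n = 3 each). ABCE1 was also high, at 22.6 ± 1.08 RPKM in shECM1 and 17.1 ± 3.49 RPKM in shNC. Below these, ABCC3 ranked 7th in shECM1 at 10.9 ± 0.270 RPKM and 4th in shNC at 16.2 ± 2.14 RPKM, and ABCC4 ranked 11th at 5.23 ± 0.511 RPKM and 15th at 3.21 ± 1.40 RPKM. ABCA7 and ABCA2 lay in the middle of the family, at 4.01 ± 0.170 and 3.94 ± 0.286 RPKM in shECM1 and 6.87 ± 1.03 and 6.98 ± 1.45 RPKM in shNC, and did not differ from each other beyond their spread. Of the 27 genes the lowest in both groups was ABCA1, at 0.105 ± 0.0553 RPKM in shECM1 and 0.0849 ± 0.0109 RPKM in shNC.

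The fold changes of the ABC genes varied with the GC content of their longest transcript, a property the rule did not use. Across the 27 genes Pearson's r was -0.51 and Spearman's rho -0.48, and across 12502 genes tested with a GC value r was -0.38 (a description across genes of the same 6 libraries, which are not independent replicates). Of the 11 ABC genes above 55% GC, 8 had negative fold changes, with a median of -0.35, beside 2742 of 3987 among all genes with a median of -0.17. Of the 8 below 45% GC, 1 was negative, with a median of 0.078, beside 1351 of 4534 among all genes with a median of 0.12. ABCA7 and ABCA2 are among the GC-richest, at 64.7% and 63.7%, and ABCC4 and ABCE1 among the poorer, at 43.2% and 38.4%. The figures for the 27 genes and for those above 55% GC include ABCA7 and ABCA2, which were picked for their difference. They therefore do not show that the family varied more steeply with GC content than all genes. With a trend on GC content removed from each library, the log2 fold changes were -0.51 for ABCA7, -0.57 for ABCA2, -0.42 for ABCC3, 0.64 for ABCC4 and 0.28 for ABCE1. Those of ABCB6 and ABCB8 were then -0.16 and -0.14.

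**Figure D4:**
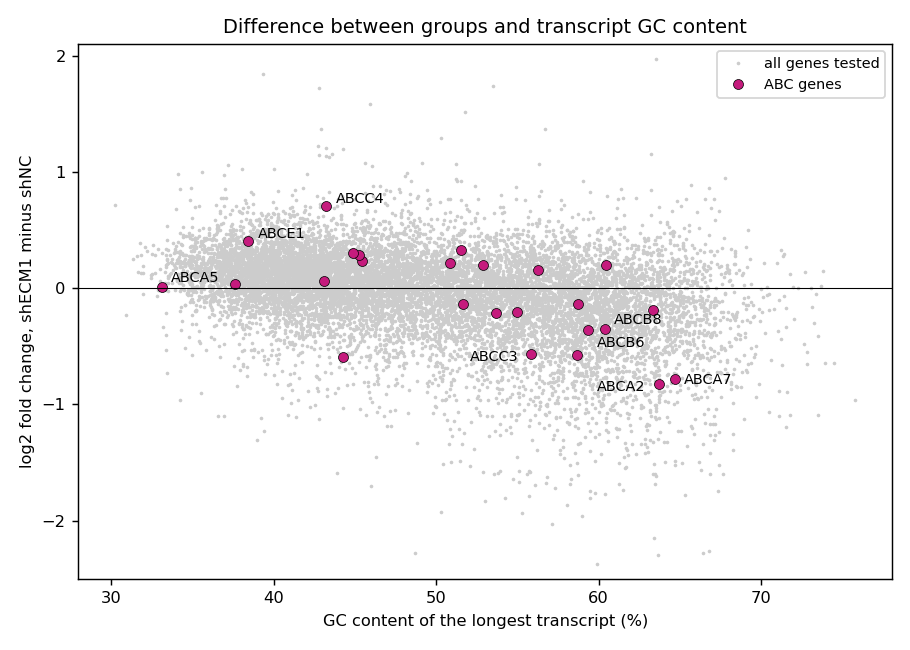
The log2 fold change of shECM1 minus shNC against the GC content of the longest transcript, in percent, for all genes tested (grey) and 25 of the 27 ABC genes (purple). Both clouds slope downward, with ABCA7 and ABCA2 low at the GC-rich end and ABCC4 and ABCE1 high at the GC-poor end.

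The genes that work beside ABC proteins were followed as lists chosen by known role, of which edgeR called 0 members at an adjusted p under 0.05 with all 6 libraries. In the sterol efflux and liver X receptor list, 16 of 17 genes were tested, and 5 were lower and 0 higher in shECM1 at an unadjusted p under 0.05 (beside 14.2% and 8.31% of all genes), with 13 negative and a median log2 fold change of -0.22. SREBF1, the lipogenic transcription factor, stood at 103.2, 102.3 and 112.6 CPM in shECM1 and 165.1, 120.5 and 161.7 CPM in shNC, a log2 fold change of -0.49 ± 0.13 (adjusted p = 0.103 with edgeR and 0.0232 with DESeq2). All its knockdown libraries lay below the controls, as did those of LCAT, the cholesterol-esterifying plasma enzyme (15.7 ± 0.858 CPM in shECM1, 21.7 ± 0.970 CPM in shNC, SD, n = 3 each). With the GC trend removed the log2 fold changes were -0.24 for SREBF1 and -0.24 for LCAT. Without shNC replicate 2, edgeR called 5 of the list lower and 0 higher, beside 14.1% and 9.73% of all genes. SREBF1 (adjusted p = 0.00145) and LCAT (adjusted p = 0.0270) were among the 5. In the ribosome recycling and translation list, which holds partners of ABCE1 and the F subfamily, 15 of 15 were tested. Of these, 1 was lower and 6 higher at an unadjusted p under 0.05, beside the same 14.2% and 8.31% of all genes. The list had 2 negative fold changes and a median of 0.25. EIF5B, the subunit-joining factor, stood at 302.4, 296.0 and 265.4 CPM in shECM1 and 225.2, 249.3 and 196.2 CPM in shNC (log2 fold change 0.36 ± 0.11, adjusted p = 0.119, and 0.24 with the GC trend removed). PELO, which recognises stalled ribosomes and works with ABCE1, had a negative log2 fold change of -0.31 ± 0.14 (adjusted p = 0.214). On leaving out shNC replicate 2, edgeR called 1 of this list lower (PELO, adjusted p = 0.0461) and 6 higher, EIF5B among them (adjusted p = 0.0102). The shares of all genes were again 14.1% lower and 9.73% higher.

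Heme, xenobiotic, peroxisomal and channel genes were followed in the same way. Of 15 heme and iron-sulphur genes tested, 2 were lower and 2 higher at an unadjusted p under 0.05, beside 14.2% lower and 8.31% higher among all genes, which is the background for each list. They include ALAS1, the first enzyme of heme synthesis, at 155.8 ± 9.90 CPM in shECM1 and 212.1 ± 46.7 CPM in shNC (SD, n = 3 each), and the chaperone HSPA9 at 927.3 ± 13.5 CPM in shECM1 and 762.8 ± 89.4 CPM in shNC. Of 11 tested xenobiotic receptors and enzymes, 3 were lower and 0 higher, with CYP3A5 at 9.40 ± 1.88 CPM in shECM1 and 14.8 ± 2.96 CPM in shNC. Of 13 peroxisomal genes, 1 was lower (CRAT, log2 fold change -0.45 ± 0.16) and 0 higher, with a median of -0.00043 beside the small changes of subfamily D. ABC proteins with other symbols showed 0 of 2 tested past that level. These were TAP1 and TAP2, the peptide transporter of antigen presentation, with log2 fold changes of -0.27 ± 0.13 and 0.21 ± 0.22, while CFTR had 0 counts in every library. Without shNC replicate 2, edgeR called 2 heme and iron-sulphur genes lower and 1 higher, 2 xenobiotic genes lower, 2 peroxisomal genes lower and TAP1 lower (adjusted p = 0.0407), beside 14.1% lower and 9.73% higher among all genes. The potassium channel pore genes that pair with ABCC8 and ABCC9 were low, with 0 lower and 1 higher of 2 tested at that level, and with KCNJ8 at 1.84 CPM in shECM1 and 0.992 CPM in shNC, and KCNJ11 at 1.14 CPM in shECM1 and 1.67 CPM in shNC.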

How the data were processed

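RNA was measured in 6 SW620 libraries, 3 per group, and the authors deposited 1 table of raw counts per gene and library. The tools named in the submitters' processing notes were Seurat, DESeq2, featureCounts, STAR and fastp, with the builds GRCh38 and hg38, while the role and version of each and the strand setting were not given in the sources used here. The labels' protocols describe both an extraction of total RNA and droplet single-cell 3′ libraries. If reads came from 3′ ends, dividing by exon length would not give comparable levels between genes. Each column was analysed as 1 library, assigned to its sample by its name.

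The table held 20476 genes, of which 20462 matched a symbol, 14 did not, and 0 rows named no gene. Genes were kept by filterByExpr and tested in R 4.3.3 with edgeR 4.0.16 (TMM, glmQLFit, glmQLFTest, shECM1 minus shNC, no covariate), with Benjamini-Hochberg adjustment over 12576 genes and a threshold of 0.05. That filter and the rule of 10 counts in 3 libraries kept the same 27 ABC genes, of which 2 are counted in totals but not reported here by name. An SE was taken as the absolute log2 fold change over the square root of F. Exon lengths, coordinates and transcript GC content came from GENCODE 29 (GRCh38), and promoter windows from RefSeq (GRCh38.p14), which had one for 35 of the 45 ABC genes.

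The members and lists were chosen with earlier results of these data known. Values in every library were given for ABCA7 and ABCA2, members called by any fit, members whose groups do not overlap and the 2 highest per length of each subfamily. Of other lists up to 3 members with the smallest p and the most abundant were eligible. A few members given by library beyond that rule (ABCA5 and ABCB1), and PELO among partners, were chosen after their values were seen. Library totals of 9881720 to 16813951 counts set the precision. A chi-square comparison of counts found every pair of libraries to differ by more than counting error.

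Alternatives were other library scalings (DESeq2-type factors, upper-quartile factors, library totals only), no count filter, minimums of 10 and 50 counts in 3 libraries, DESeq2 1.42.0, limma-voom (limma 3.58.1), the replicate number as a block, a per-library GC content offset, and leaving out each library. A non-legacy dispersion fit in edgeR was chosen after seeing the data.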

Additional observations from a re-analysis of the deposited data

How the results depend on the processing

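Over the alternatives run, 18 of the 25 ABC genes named here kept the sign of their log2 fold change under each, ABCA7, ABCA2, ABCC3, ABCC4 and ABCE1 among them, and 7 changed sign under at least 1. The number of genes called was 505 with no count filter and 692 with DESeq2, against 0 with edgeR as reported, and the ABC genes past the threshold were 3 in both, ABCC3 and the pair ABCA2 and ABCA7, for which this is no test since they were picked for their difference. Leaving out 1 library at a time gave 0 to 3037 genes called and 0 to 8 ABC genes, with 3037 and 8, that pair included, reached without shNC replicate 2. It gave 3 to 7 ABC genes lower and 1 to 4 higher at an unadjusted p under 0.05, and a median log2 fold change of -0.072 to 0.038. Those counts cover that pair too. The share of all genes at that p is not given for these fits, so the counts say nothing about the family. With the GC content offset, and with that pair left out, 1 of 25 ABC genes (4%) was lower at that level (ABCC3). This stands beside 11.1% of all genes in that fit. In the other direction 4 of 25 (16%) were higher (ABCC4, ABCE1, ABCF1 and ABCF3), beside 11.5%. The log2 fold changes that turned were those of ABCA5 (-0.065 with limma-voom, -0.18 with the GC offset), and with the GC offset ABCB1 (-0.023), ABCB9 (0.066), ABCC10 (0.056) and ABCD3 (-0.11). Leaving out 1 library moved ABCA1 between -0.13 and 0.64, ABCA5 between -0.27 and 0.23, ABCB1 between -0.16 and 0.25, ABCB9 between -0.39 and 0.0097, ABCC5 between -0.051 and 0.35, and ABCD3 between -0.036 and 0.15. Of those that kept their sign in these fits, it moved ABCA3 between 0.033 and 0.33, ABCC11 between 0.028 and 0.74, ABCG1 between -0.31 and -0.040, ABCB4 between -0.82 and -0.38, ABCC1 between -0.26 and -0.13, ABCC6 between -0.71 and -0.37, ABCC10 between -0.23 and -0.072, and ABCF1 between 0.12 and 0.28. The cause was not tested. A minimum of 50 counts in 3 libraries gave no value for ABCA1, ABCB4, ABCC6 and ABCC11. These genes had 5 to 32 counts per library and SEs of 0.32 to 0.45. Over the alternatives adjusted p ran from 0.0019 to 0.376 for ABCC3, 0.00153 to 0.415 for ABCC4, 0.00362 to 0.444 for ABCE1, 0.00659 to 0.713 for ABCC2, 0.0278 to 0.417 for ABCB6 and 0.0399 to 0.450 for ABCB8, with the lowest value of each reached without shNC replicate 2.

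With the replicate number as a block, 0 genes were called, 5 ABC genes were lower and 3 higher at an unadjusted p under 0.05, and ABCA5 turned to -0.043. Those counts cover ABCA7 and ABCA2 too. The share of all genes at that p is not given for this fit, so the counts say nothing about the family. The deviations of libraries with the same number from their group means correlated at -0.070, -0.046 and -0.18, and no library correlated best with its own number. With 3 libraries per group, these correlations cannot decide whether libraries of the same number were handled together, and the labels do not say.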
